A study of Mus musculus with 768 samples.

Results

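Coinhibitory receptors other than TIGIT and its partners were followed in tumor-infiltrating natural killer (NK) cells through 7 genes, which were taken by symbol from 24490 gene entries: Pdcd1 (PD-1), Lag3, Havcr2 (TIM-3), Ctla4, Cd160, Klrg1 and Cd274 (PD-L1). Each of the 7 symbols was present once on both plates. NK cells had been sorted singly as NK1.1-positive and CD3-negative cells from tumors of wild type (WT) C57BL/6 mice and of PD-1-/- mice on the same strain. The mice carried MTAP1A, a fibrosarcoma line of Tap1-deficient origin with low MHC class I, the ligand of many inhibitory NK receptors. Tumors of 3 mice were pooled for each genotype, and each pool filled 1 plate that was sequenced by SMART-SEQ2, a full-length single-cell RNA method without molecular identifiers. Each genotype is therefore 1 sample, its effect and that of its plate cannot be told apart, and no test between the genotypes was possible. The PD-1-/- mice are not animals without Pdcd1 RNA, since their allele lacks exons 3 and 4 and keeps the rest of the gene.

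Coinhibitory receptors are surface proteins that lower the response of T cells and NK cells when they meet their ligands, and antibodies against several of them are used in cancer treatment. PD-1 binds PD-L1 and PD-L2 and recruits the phosphatase SHP-2. CTLA-4 competes with CD28 for CD80 and CD86, LAG-3 binds MHC class II, TIM-3 binds galectin-9 and other ligands, CD160 binds HVEM, and KLRG1 binds cadherins. PD-L1 is the ligand of PD-1 rather than a receptor of this kind, and was followed with them because NK cells themselves can carry it. In T cells, several of these receptors often appear together after repeated stimulation, while KLRG1 is known as a mark of mature NK cells and of effector T cells.

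After wells outside 1000 to 3500 detected genes were left out, 726 cells remained, 360 of them WT. A transcript is called detected where its RPKM, the number of reads divided by the length of the gene and the depth of the cell, was above 0. Reads recovered from the RPKM values numbered 344254 per WT cell and 368578 per PD-1-/- cell at the median, with ranges of 1451 to 535215 and 1992 to 608008. The intervals given with shares are exact Clopper-Pearson 95% intervals, those of differences are Newcombe intervals, and both cover counting error over cells only, not the spread between mice. Most cells had NK cell transcripts, and the median share of 8 NK cell markers was 95.6% in WT and 94.4% in PD-1-/-. Ncr1 (NKp46) had a share of 90.8% in WT and 91.8% in PD-1-/-. Eomes, the least frequent of the 8, was in 61.9% and 55.2%. CD3 transcripts (Cd3d, Cd3e or Cd3g), which the sort was meant to remove with the CD3 protein, were present in 65 WT and 83 PD-1-/- cells. The first wells of the WT plate stood apart, because a CD3 transcript was present in 20 of its 38 cells in plate rows A and B (52.6%), while rows C to P held the other 45 such cells. Results that rest on these wells or cells are given with and without them.

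The part of Pdcd1 taken to be deleted is shown here because it decides what the Pdcd1 values can and cannot check. In GENCODE vM21 (GRCm38) the gene lies on chromosome 1 from 94038305 to 94052553 on the minus strand and has 5 exons in 1 transcript of 1930 bases. Exon 3 (chr1:94040710-94040871, coding for the stalk and membrane span) and exon 4 (chr1:94040092-94040126, 35 bases, at the start of the cytoplasmic tail) read as follows, 5′ to 3′ on the strand of the gene, with the exons numbered as in GENCODE.
Exon 3: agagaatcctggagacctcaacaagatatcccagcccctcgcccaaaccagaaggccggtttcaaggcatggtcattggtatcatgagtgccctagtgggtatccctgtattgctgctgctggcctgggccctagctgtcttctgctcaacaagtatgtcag
Exon 4: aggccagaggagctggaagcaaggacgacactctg
Together they make up 10.2% of the transcript. That the deletion follows this numbering was assumed, since the paper names exons 3 and 4 without coordinates. The RPKM of a gene counts reads over all of its exons. On this numbering, 1733 bases outside the deletion can still give Pdcd1 reads in PD-1-/- cells. The Pdcd1 value thus checks neither the deletion nor the genotype labels.

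The other 6 genes lie elsewhere in GRCm38: Ctla4 on chromosome 1 (60887000 to 60915832, plus strand), Cd160 on chromosome 3 (96798763 to 96829351, minus strand), Klrg1 and Lag3 on the minus strand of chromosome 6 (122270596 to 122282882 and 124904361 to 124911705), Havcr2 on chromosome 11 (46454935 to 46481255, plus strand) and Cd274 on chromosome 19 (29367455 to 29388095, plus strand). Pdcd1 and Ctla4 are genes that NFAT, the calcium-driven factor of lymphocyte activation, is known to act on. Shown for both, from the RefSeq promoter table of build GRCm38.p6, are the 250 bases before the start annotated there. For Ctla4 this window lies inside the GENCODE span given above, whose start is further upstream. Whether NFAT has a part in the values of these cells was not tested. Capitals mark the NFAT core, GGAAA on the printed strand or TTTCC for the opposite one.
Pdcd1 (chr1:94052554-94052803, minus strand): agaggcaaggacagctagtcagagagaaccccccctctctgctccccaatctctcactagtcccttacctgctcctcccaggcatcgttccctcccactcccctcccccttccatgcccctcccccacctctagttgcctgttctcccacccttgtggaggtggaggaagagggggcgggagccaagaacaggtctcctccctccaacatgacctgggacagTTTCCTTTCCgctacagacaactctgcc
Ctla4 (chr1:60908775-60909024, plus strand): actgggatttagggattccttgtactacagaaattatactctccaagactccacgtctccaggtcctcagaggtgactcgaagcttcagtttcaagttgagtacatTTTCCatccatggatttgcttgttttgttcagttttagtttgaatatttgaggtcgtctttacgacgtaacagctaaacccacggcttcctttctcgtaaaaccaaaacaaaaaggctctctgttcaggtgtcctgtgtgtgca
The Pdcd1 window held 2 adjacent matches and the Ctla4 window 1. Among the other members in the table, Cd274 had 1 match, Cd160 had 1 in 1 of its 2 windows, and Havcr2 had 0. A match is common, since 55.6% of the 32851 windows of this length had at least 1 and 21.4% had at least 2. Lag3 and Klrg1 were the members without an entry.

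Pdcd1 RNA was present in 9 cells of the WT plate (2.50%) and 47 of the PD-1-/- plate (12.8%). The 9 WT cells had 103.98 to 1493 RPKM (median 395), and the 47 PD-1-/- cells had 1.64 to 536 RPKM (median 89.5). The positive cells of the PD-1-/- plate were thus more numerous and lower, and the ranges overlapped. As a result the mean over all cells was nearly equal, at 14.4 RPKM in WT and 13.9 RPKM in PD-1-/- cells. All 9 WT cells sat in plate rows A and B, 8 of them in row A, where 17 cells were kept. In rows C to P, 39 PD-1-/- cells had Pdcd1 (12.1%) and 0 WT cells did, which by the rule of 3 cells over the total leaves room for a WT share of 0.932% (exact upper limit 1.14%). Of the 9 WT cells, 8 had at least 1 of 10 T cell markers, with a summed level of 0 to 3926 RPKM. Among all WT cells 22.2% had such a marker. The 9 cells had a median of 3 of these markers and 2335 RPKM, against 0 and 0 RPKM over all WT cells. Cd6, Cd8b1, Bcl11b and the CD3 genes were each in at least 1 of the 9. Cd4, Cd5, Cd8a and Themis were at 0 in all 9 cells, and were in 0 to 1.94% of all WT cells. All 9 also had NK cell markers, with a median of 6 of 8 detected against 8 over all WT cells. Of the 47 PD-1-/- cells, 20 (42.6%) had a T cell marker, against 26.8% of all cells of that plate. Whether T cells among the sorted cells account for the WT values was not tested.

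Across the 7 genes, Cd160 was the most frequent and Havcr2 the rarest. The order in all 726 cells was Cd160 (37.3%), then Klrg1 and Cd274 (18.9% each), Lag3 (17.5%), Pdcd1 (7.71%), Ctla4 (4.96%) and Havcr2 (0.689%). The intervals of Klrg1, Cd274 and Lag3 overlapped, and their difference over the same cells was not tested. Among them, Cd274 was the most frequent in WT (20.6%) and the least frequent in PD-1-/- (17.2%). A higher share in PD-1-/- than in WT cells was seen for 6 of the 7 genes, where 45.9% of 12030 expressed genes (a mean of 1 RPKM or more in either genotype) had one. A difference of 5 or more percentage points upward was seen for 4 of the 7, against 3.57% of those genes, and one of that size downward for 0 of the 7, against 4.3%. The median difference was 6.58 points over the 7 genes and -0.11 points over all 12030.

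**Figure D1:**
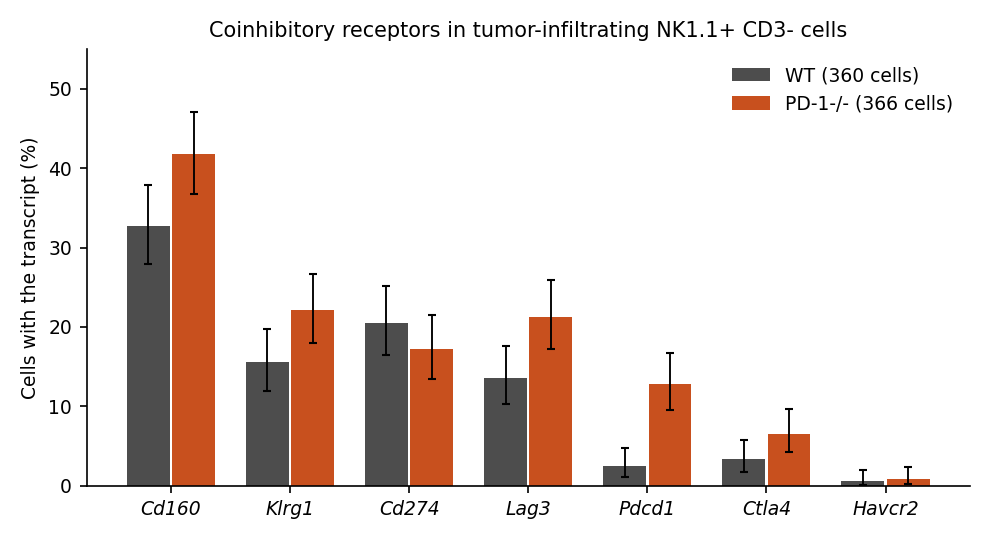
Percentage of kept cells (y axis) in which each transcript (x axis, most frequent first) was above 0 RPKM, for 360 WT cells (grey) and the PD-1-/- cells (orange). Bars are shares and whiskers exact 95% intervals of counting error. Cd160 is the tallest pair at 32.8% and 41.8%, Pdcd1 shows the widest gap at 2.50% and 12.8%, and Cd274 is the one gene lower in PD-1-/- cells.

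Lag3, the receptor for MHC class II, had a share of 13.6% (10.2 to 17.6) in WT and 21.3% (17.2 to 25.9) in PD-1-/-, a difference of 7.70 points (2.17 to 13.2). Its level in positive cells did not separate the genotypes, with a median of 211.8 RPKM (1.26 to 644) over 49 WT cells and 214.9 RPKM (1.03 to 975) over 78 PD-1-/- cells. The difference in mean level, 27.7 against 53.6 RPKM, therefore lay largely in how many cells had the transcript. Lag3 also differed within the WT plate: its share was 26.3% over 38 cells in rows A and B, 5.71% in rows C to H (8 cells) and 17% in rows I to P (31 cells). On the PD-1-/- plate the shares of these rows were 17.8%, 20.1% and 23.1%. The share of Lag3 in rows I to P was 6.04 points higher in PD-1-/- cells, with an interval of -2.21 to 14.2 that spans 0.

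Ctla4, which in lymphocytes takes up CD80 and CD86, was the second rarest at 3.33% (1.73 to 5.75, 12 cells) in WT and 6.56% (4.25 to 9.60, 24 cells) in PD-1-/-. The difference of 3.22 points had an interval from 0.026 to 6.55, and it spans 0 without cells carrying a CD3 transcript. Levels in positive cells ran from 1.72 to 656 RPKM (median 42.8) in WT and from 1.16 to 929 RPKM (median 109.4) in PD-1-/- cells, so the groups overlapped over nearly their whole range. Of the 12 WT cells, 6 had at least 10 recovered reads of Ctla4, and of the 24 PD-1-/- cells, 20 had.

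Havcr2 was close to undetected. The 2 positive WT cells had 0.838 and 258.7 RPKM, and the 3 positive PD-1-/- cells had 1.42, 17.9 and 317.1 RPKM. Only the last of these 5 values came from more than 3 reads, and 1 cell made up 99.7% of the WT mean and 94.3% of the PD-1-/- mean, so no direction can be read. The shares were 0.556% and 0.820%, with upper limits of 1.99% and 2.38%.

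Cd160, a GPI-anchored or transmembrane receptor of NK cells and intraepithelial T cells, had a share of 32.8% (27.9 to 37.9) in WT and 41.8% (36.7 to 47.04) in PD-1-/-. The difference was 9.03 points (1.99 to 15.9) and it was 6.21 points (-1.44 to 13.8) without cells that had a CD3 transcript. Positive cells had a median of 179.6 RPKM (1.03 to 841) in WT and 213.9 RPKM (0.923 to 1873) in PD-1-/-, and the ranges overlapped. Within each plate, Cd160 was more frequent in cells with a CD3 transcript, at 46.2% against 29.8% in WT and 61.4% against 36% in PD-1-/-. At least 2-fold higher shares with a CD3 transcript were seen for 2.98% and 1.99% of genes, and Cd160 was not among them.

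Klrg1, the cadherin receptor, differed both in share and in level. Its share was 15.6% (12 to 19.7, 56 cells) in WT and 22.1% (18 to 26.7, 81 cells) in PD-1-/-. Positive cells had a median of 327.3 RPKM and a highest value of 905 RPKM in WT, and a median of 444 RPKM and a highest value of 2397 RPKM in PD-1-/- cells. The upper quartile of positive PD-1-/- cells (857 RPKM) was thus near the highest WT cell, while the low ends of both groups coincided (1.90 and 1.55 RPKM). The difference in share, 6.58 points (0.878 to 12.2), spans 0 when plate rows A and B are left out (4.72 points, -1.33 to 10.8). In cells with and without a CD3 transcript, Klrg1 had shares of 15.4% and 15.6% in WT and of 21.7% and 22.3% in PD-1-/-.

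Cd274, which encodes PD-L1, was the member with a lower share in PD-1-/- cells. It had a share of 20.6% (16.5 to 25.1, 74 cells) in WT and 17.2% (13.5 to 21.5, 63 cells) in PD-1-/-, and the difference of -3.34 points (-9.04 to 2.36) spans 0. The positive cells had medians of 94.7 and 112.5 RPKM and highest values of 550 and 547 RPKM. The groups coincided in range, and 57 of 74 and 48 of 63 positive cells had at least 10 reads.

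**Figure D2:**
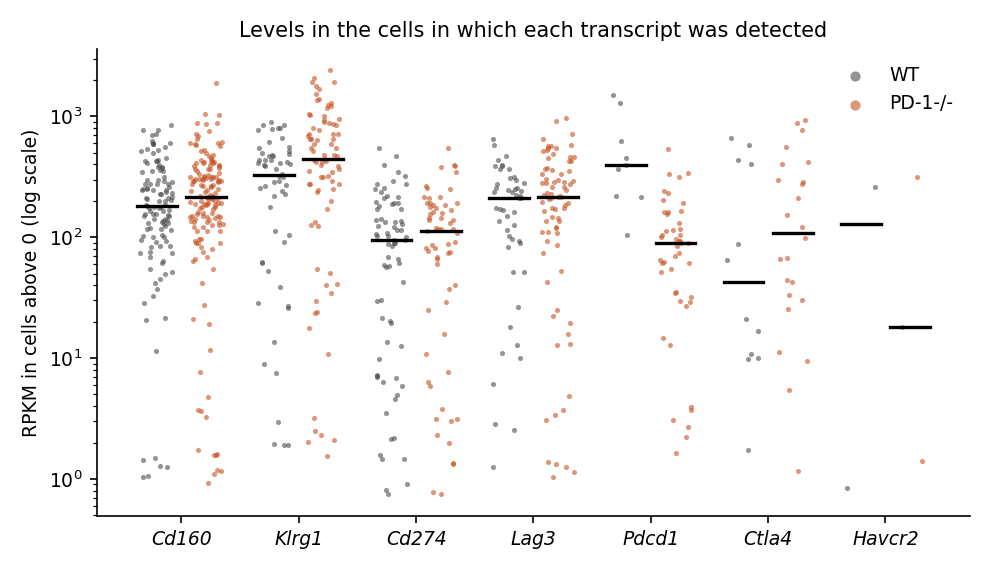
RPKM on a log scale (y axis) of each cell in which the transcript (x axis) was above 0, for WT (grey) and PD-1-/- cells (orange); each point is a cell and the black line the median. Klrg1 in PD-1-/- cells reaches above the highest WT cell (2397 against 905 RPKM), as do Cd160, Lag3, Ctla4 and Havcr2. The median of Pdcd1 is lower in PD-1-/- cells. The genes other than Klrg1 and Pdcd1 overlap over most of their range.

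On the log2 scale of mean RPKM over all cells (with 1 RPKM added), the ratio of PD-1-/- over WT was 1.31 for Klrg1 (52.8 and 132.7 RPKM), 1.18 for Ctla4 (6.37 and 15.7 RPKM), 0.93 for Lag3, 0.56 for Cd160 (77.1 and 113.96 RPKM), 0.16 for Havcr2, -0.04 for Pdcd1 and -0.15 for Cd274 (23.8 and 21.4 RPKM). Of the 6 members among the expressed genes, Klrg1 and Ctla4 were past a 2-fold rise, where 4.71% of 12030 genes were, and 0 were past a 2-fold fall, where 7.34% were. The median over the 7 genes was 0.56 and the median over all genes was -0.03. The Pdcd1 ratio turned on the WT wells that stood apart. Without plate rows A and B the mean was 0 RPKM in WT and 13.9 RPKM in PD-1-/-, so that the size of a ratio is set by the added 1 RPKM, and without cells having a CD3 transcript, which left 1 positive WT cell, the ratio was 3.03. Ctla4 was under 2-fold in 4 of the other settings: it was at 0.77 without cells having a CD3 transcript, 0.87 with all wells kept, 0.65 with 10 RPKM added, and 0.57 without both rows A and B and cells having a CD3 transcript, an alternative chosen after the data had been seen. Klrg1 was under 2-fold in 1 of them, at 0.95 in rows I to P.

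Since depth could change how many receptors are seen, the cells were also thinned to 100000 reads each, which left out 22 WT and 14 PD-1-/- cells that were shallower. The thinned shares were 2.07% and 11.9% for Pdcd1, 13.6% and 20.2% for Lag3, 2.66% and 6.25% for Ctla4, 32.2% and 40.9% for Cd160, 14.5% and 21.02% for Klrg1, and 20.4% and 15.3% for Cd274. Each lay within the interval of the unthinned share, and the order of the genotypes was the same for these 6 genes.

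Most cells had none of the 7 transcripts or 1 of them. In WT, 41.1% of cells had 0, 36.7% had 1, 16.4% had 2 (59 cells) and 5.83% had 3 or more (21 cells). In PD-1-/-, 29.2% of cells had 0, 37.7% had 1, 19.1% had 2 (70 cells) and 13.9% had 3 or more (51 cells). The highest number was 5, in 1 WT and 3 PD-1-/- cells. The mean was 0.889 of the 7 transcripts per WT cell and 1.23 per PD-1-/- cell. Both means count Cd274, which encodes a ligand, and Pdcd1, which was present in 9 WT cells and 47 PD-1-/- cells. According to the paper, the PD-1-/- allele gives no PD-1 protein, so these are counts of RNA and not of receptors on the cell. No mean was made without Cd274 and Pdcd1. In the counts per cell below, receptors stands for the 7 transcripts.

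The share with 2 or more was 22.2% (18 to 26.9) in WT and 33.1% (28.3 to 38.1) in PD-1-/- cells, a difference of 10.8 points (4.33 to 17.2). Without Pdcd1, the remaining 6 genes gave 22.2% (18 to 26.9) and 28.4% (23.8 to 33.3), and these 2 intervals overlap. Leaving out cells with a CD3 transcript gave 20.7% and 29.3%, and the thinned cells gave 21% and 31.2%. The PD-1-/- share was the higher of the pair in each of these settings.

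Cells with more receptors also had more detected genes and more often a CD3 transcript. In WT, the median number of detected genes was 2054 in cells with 0 receptors and 3171 in cells with 3 or more, and the share with a CD3 transcript was 11.5% and 38.1%. In PD-1-/- cells these values were 1949 and 2591 genes, and 11.2% and 31.4%. Their part in the number of receptors per cell was not tested.

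**Figure D3:**
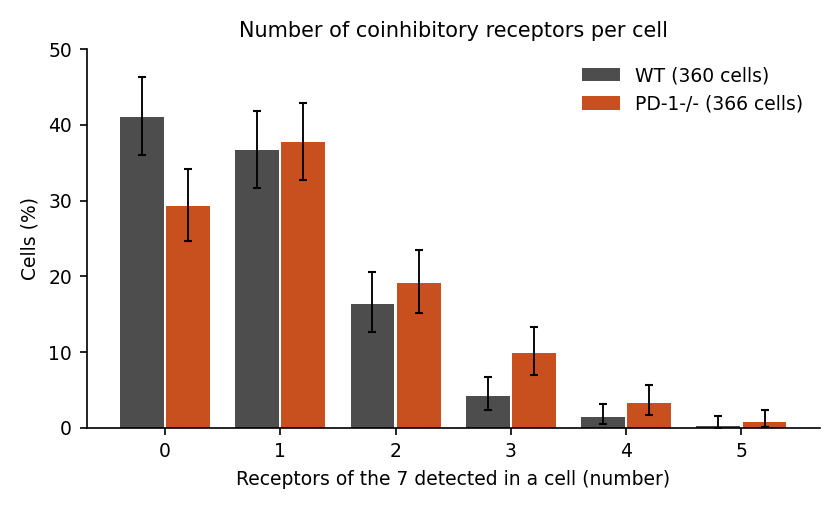
Percentage of cells (y axis) with 0 to 5 of the 7 transcripts detected (x axis) in WT (grey) and PD-1-/- cells (orange); bars are shares and whiskers exact 95% intervals of counting error. The share with none is 41.1% in WT and 29.2% in PD-1-/- cells, and the PD-1-/- bars are the taller ones from 1 receptor upward.

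Cd160 on its own was the most frequent pattern, in 65 WT and 58 PD-1-/- cells. Cd274 alone was next in WT with 26 cells (21 in PD-1-/-), and Klrg1 alone was next in PD-1-/- with 34 cells (21 in WT). Lag3 alone was seen in 14 and 20 cells.

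Pdcd1, Lag3 and Ctla4 were found together in pairs, and few cells had all of them. On the PD-1-/- plate, where Pdcd1-positive cells were frequent enough to describe, Lag3 was in 24 of 47 cells with Pdcd1 (51.1%, 36.1 to 65.9) and in 16.9% of those without it. Ctla4 was in 11 of those 47 cells (23.4%, 12.3 to 38) and in 4.08% of the rest. As background, 4.45% of 8543 genes seen in at least 5% of cells were at least 2-fold more frequent in cells with Pdcd1.

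Lag3 and Ctla4 were paired as well. In PD-1-/- cells, 15 of 24 cells with Ctla4 had Lag3 (62.5%, 40.6 to 81.2), against 18.4% without Ctla4, where 7.74% of genes were 2-fold more frequent. In WT, 5 of 12 cells with Ctla4 had Lag3 (41.7%, 15.2 to 72.3) against 12.6%, where 12.5% of genes were. The WT pair rests on few cells: Ctla4 was 7.95 points more frequent with Lag3 (1.74 to 19.6), and 5.17 points without cells having a CD3 transcript, where the interval of -0.71 to 18.2 spans 0. In the WT plate 6 of 9 cells with Pdcd1 had Lag3, all of them cells of rows A and B.

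The pairing in PD-1-/- cells was as large without CD3 transcripts and without rows A and B. The share of Lag3 was 34.1 points higher in cells with Pdcd1 (19.6 to 48.3), 37.9 points without cells having a CD3 transcript, 33.6 points without rows A and B, and 39.3 points after thinning. For Ctla4 in cells with Lag3 the difference was 16.1 points (8.40 to 26.3), and 16.9, 16.8 and 13.3 points in these settings. Ctla4 was thus in 19.2% of cells with Lag3 and 3.12% of those without, where 6.7% of genes were 2-fold more frequent, and in WT in 10.2% and 2.25%, where 9.3% were. Cells with Lag3 had more detected genes than those without, with medians of 2739 and 2132 in PD-1-/- and 2879 and 2217 in WT cells. The part of this number in the pairing was not tested.

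Cd160 was also more frequent in cells with Pdcd1 or Lag3, by less than 2-fold, while Klrg1 was not more frequent with Lag3. Cd160 was in 65.96% of PD-1-/- cells with Pdcd1 against 38.2% without, and in 53.8% of those with Lag3 against 38.5% without. In WT it was in 48.98% of cells with Lag3 against 30.2% without. Klrg1 was in 19.2% of PD-1-/- cells with Lag3 and in 22.9% of the others, and in WT these shares were 14.3% and 15.8%, with differences whose intervals span 0.

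The pairs of Cd274 had other values on each plate. In WT it was in 18 of 49 cells with Lag3 (36.7% against 18% without), in 19 of 56 cells with Klrg1 (33.9% against 18.1%) and in 6 of 9 cells with Pdcd1. The WT difference with Klrg1 was 15.8 points (3.86 to 29.5), and after thinning 9.54 points with an interval of -2.26 to 24 that spans 0. In PD-1-/- cells the shares were 14.1% against 18.1% with Lag3, 18.5% against 16.8% with Klrg1 and 14.9% against 17.6% with Pdcd1. Whether the pairing of Cd274 differs between the genotypes was not tested, since each is 1 sample.

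**Figure D4:**
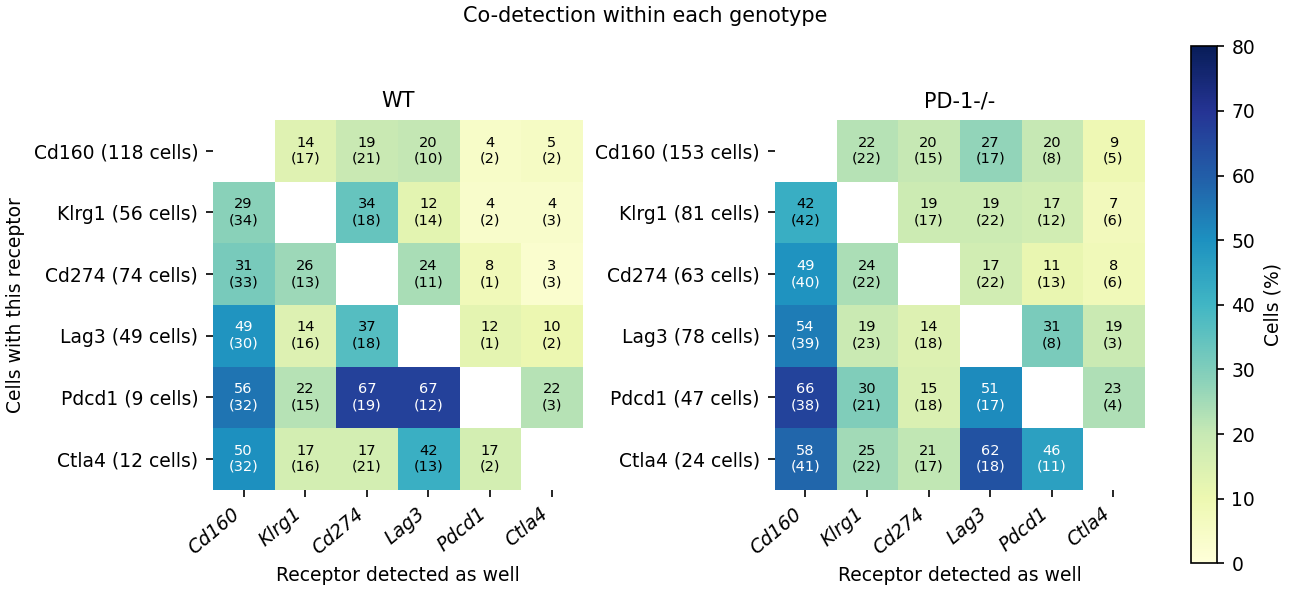
Percentage of cells with the receptor of the row in which the receptor of the column was detected as well, for WT (left) and PD-1-/- cells (right); the number in brackets is the percentage in cells without the receptor of the row, and Havcr2 is left out for having 5 positive cells. The darkest fields of the PD-1-/- panel are in the Cd160 column, and in the Lag3 column for cells with Pdcd1 or Ctla4. Cells with Cd274 had Cd160 in 49.2% there, against 40.3% without Cd274. The Cd274 column of the WT panel is darkest for the 9 cells with Pdcd1 (66.7%) and palest for those with Ctla4 (16.7%). In the PD-1-/- panel that column is at 20.8% at most.

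By plate rows, Cd160 varied little. Its share in rows A and B, C to H and I to P was 36.8%, 32.1% and 32.4% in WT and 40%, 39.6% and 44% in PD-1-/-. Cd274 was at 26.3%, 18.6% and 20.9% in WT and at 17.8%, 15.8% and 18.1% in PD-1-/-. Klrg1 was in 3 of 38 WT cells in rows A and B and in 17.1% and 15.9% of the others, where PD-1-/- cells had 28.9%, 19.4% and 22.5%. In WT, 5.4% of genes were at least 2-fold more frequent in rows A and B than in rows C to P, and 7.42% at least 2-fold less frequent.

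**Figure D5:**
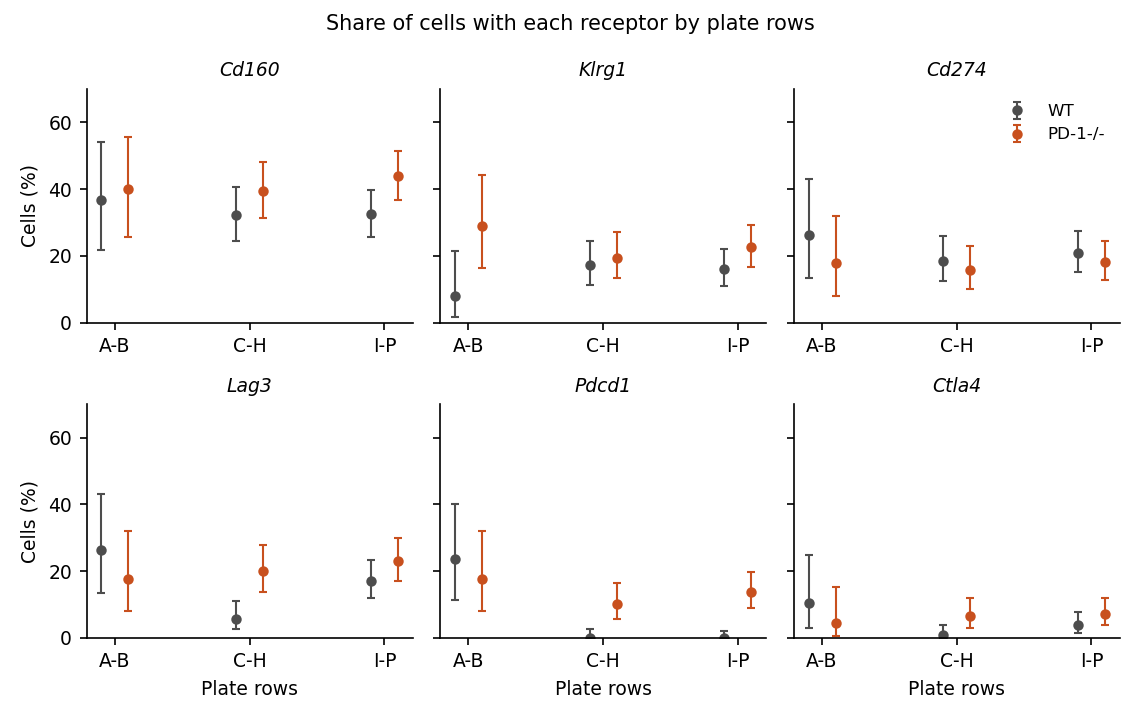
Percentage of cells (y axis) with each of 6 receptors in plate rows A and B, C to H and I to P (x axis), for WT (grey) and PD-1-/- cells (orange); points are shares and whiskers exact 95% intervals of counting error. Pdcd1 is at 23.7% in rows A and B of the WT plate and at 0 in its other rows. The PD-1-/- plate has Pdcd1 in each of these groups of rows, although 0 of the 22 cells of its row D had it.

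Cells with Cxcr6, a chemokine receptor of tissue-resident lymphocytes, carried more of these receptors on both plates. Of 28 WT cells with Cxcr6, 14 had 2 or more receptors (50%, against 19.9% without Cxcr6), and of 77 PD-1-/- cells 48 had (62.3%, against 25.3%). Of all genes, 6.47% were at least 2-fold more frequent with Cxcr6 in WT and 2.84% in PD-1-/-. In PD-1-/- cells with Cxcr6, Cd160 was in 67.5% (34.9% without), Lag3 in 33.8% (18%), Pdcd1 in 32.5% (7.61%) and Ctla4 in 16.9% (3.81%). Klrg1 was in 29.9% against 20.1%, and Cd274 in 14.3% against 18%. In WT cells with Cxcr6, Cd160 was in 50% (31.3% without), Lag3 in 32.1% (12%), Pdcd1 in 25% (0.602%) and Ctla4 in 14.3% (2.41%). There Klrg1 was in 21.4% against 15.1%, and Cd274 in 39.3% against 19%, the opposite order to PD-1-/-. A CD3 transcript was in 42.9% of PD-1-/- cells with Cxcr6 and 17.3% of the rest. On the WT plate it was in 64.3% of Cxcr6 cells and 14.2% of the rest. The part of these cells in the receptor shares was not tested. Cxcr6 itself had a share of 7.78% in WT and 21.04% in PD-1-/-.

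Cells without Eomes, a T-box factor of conventional NK cells, had more Pdcd1 and Cd160. In PD-1-/- cells Pdcd1 was in 18.9% of cells without Eomes and 7.92% of those with it, Cd160 in 46.95% and 37.6%, and Klrg1 in 28.7% and 16.8%. In WT, Cd160 was in 37.2% and 30.04%, whereas Klrg1 had the opposite order at 13.1% and 17.04%. For Lag3 the shares were 18.2% and 10.8% in WT and 22.6% and 20.3% in PD-1-/-. Shares at least 2-fold higher without Eomes were seen for 1.22% of genes in WT and 1.16% in PD-1-/-, and the Cd160 differences were smaller than 2-fold. A CD3 transcript was also more frequent in cells without Eomes, at 22.6% against 15.2% in WT and 28.7% against 17.8% in PD-1-/-, and its part was not tested.

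Mki67, a marker of cycling cells, was present in 17 WT and 31 PD-1-/- cells. Cd160 was in 12 of these WT cells and 18 of these PD-1-/- cells (70.6% and 58.1%), against 30.9% and 40.3% without Mki67. Shares at least 2-fold higher with Mki67 were seen for 11.1% of genes in WT and 6.4% in PD-1-/-. Mki67 cells also had more detected genes, with medians of 2538 against 2254 in WT and 2504 against 2234 in PD-1-/-. Pdcd1 was in 9 of the 31 PD-1-/- cells (29.03%), against 11.3%. Cells with 2 or more receptors made up 41.2% and 54.8% of the Mki67 cells, and 21.3% and 31.04% of the others.

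Correlations over cells of log2(RPKM + 1) were weak, and they describe cells that share a library. The genes most like each member, by the lower of the correlations over the cells of each plate, were Gzmc (r = 0.35 and 0.32), Amica1 and Nrgn for Lag3. For Cd160 they were Cd3e (0.27 and 0.30), Cd3g (0.27 and 0.35) and Ltb (0.25 and 0.37). The leading genes were Rgs2 for Ctla4 (0.17 and 0.22), Lgals1 for Klrg1 (0.17 and 0.16) and Bhlhe40 for Cd274 (0.16 and 0.15). Pdcd1, with 9 WT cells, and Havcr2 were too rare for this measure.

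Ligands of these receptors were measured in the NK cells themselves. Of 13 ligand genes, 9 were expressed. Cd80 was the 1 past a 2-fold rise, on 2 WT and 6 PD-1-/- cells, where 4.71% of the 12030 expressed genes were. Lgals3 (galectin-3, which can bind LAG-3) had a share of 25.3% in WT and 36.6% in PD-1-/-, and in cells with 2 or more receptors it was at 40% and 51.2%, against 21.6% and 28.04% in cells with 0. Lgals9 (galectin-9, a ligand of TIM-3) had a share of 56.4% in WT and 59.3% in PD-1-/-. Pdcd1lg2 (PD-L2) was in 18.9% and 19.9%, Tnfrsf14 (HVEM, bound by CD160) in 7.78% and 8.74%, and H2-Ab1 (an MHC class II chain) in 5% and 7.92%. Fgl1 and Clec4g, which encode other LAG-3 ligands, were in 0 of the 726 cells. In cells with 2 or more receptors, Pdcd1lg2 was at 26.3% in WT and 27.3% in PD-1-/-, against 10.1% and 11.2% in cells with 0 receptors. Detected genes also rose with 0, 2 and 3 or more receptors, at medians of 2054, 2397 and 3171 in WT and 1949, 2394 and 2591 in PD-1-/-. Their part in the shares by number of receptors, here and below, was not tested, and no background over all genes was made for this split.

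Of 4 signaling genes that act behind these receptors, 0 were past 2-fold in either direction. Among the 12030 expressed genes, 4.71% were past a rise and 7.34% past a fall. The phosphatase gene Ptpn6 (SHP-1) had shares of 57.2% in WT and 55.7% in PD-1-/-, Ptpn11 (SHP-2) 20% and 18.3%, and Inpp5d (SHIP-1) 66.7% and 66.1%.

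Among 9 other coinhibitory receptors and ectoenzymes, 0 were past a 2-fold change. Of the 12030 expressed genes, 4.71% were past a rise and 7.34% past a fall. The log2 ratio was above 0 for 7 of the 9, as for 47.6% of the expressed genes, and the median of the 9 ratios was 0.27. The largest were Nt5e (CD73, 0.91; in 4.44% and 9.29% of cells) and Entpd1 (CD39, 0.80; in 10.8% and 16.7%), the ectoenzymes that make adenosine from ATP. Tigit was more frequent than any of the 7 members, at 57.5% and 61.7%, and was in 57.4% and 65.4% of cells with 0 receptors and in 63.8% and 62% of cells with 2 or more.

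Of 11 transcription factors tied to chronic stimulation, 9 were expressed. A 2-fold rise was seen for 1 (Nr4a2, 1.13 on the log2 scale, in 10% and 12.8% of cells), where 4.71% of the 12030 expressed genes had one. A 2-fold fall was seen for 0, where 7.34% had one. Tox, a factor of exhausted T cells that also acts in NK cell development, had shares of 22.8% in WT and 26.2% in PD-1-/-, and Nfatc1, an NFAT gene, 66.1% and 65.8%. Tox was in 23.6% of WT cells with 0 receptors and 17.5% with 2 or more, and in 26.2% and 28.9% of PD-1-/- cells.

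Markers of other cell types were present in a minority of cells. Myeloid-like markers were in 47 WT and 26 PD-1-/- cells. Of the 3 expressed ones, 2 were past a 2-fold fall, where 7.34% of the 12030 expressed genes were. Myeloid-like markers were present in 13.8% and 5.79% of cells with 2 or more receptors, against 10.1% and 6.54% of cells with 0 receptors. At least 1 T-like marker was present in 30% and 36.4% of cells with 2 or more receptors, against 15.5% and 13.1% with 0, and of the 10 markers the 3 CD3 genes were each in 28 to 62 cells of a plate, Bcl11b in 17 and 22, and the other 6 (Cd4, Cd5, Cd6, Cd8a, Cd8b1 and Themis) in 0 to 9. Cycling-like markers were in 17.5% and 33.1% of cells with 2 or more receptors and in 17.6% and 20.6% with 0. The part of these cells in the receptor shares was not tested.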

How the data were processed

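NK cells of 1 pool per genotype were measured on 2 plates of 384 wells. The authors deposited RPKM per gene and cell. TopHat, Cufflinks, mm9 and mm10 are named in the submitters' processing notes without version or role, and the annotation is not given in the sources used here. RPKM normalised by length and depth hides the counts, so a correction of depth was made on reads recovered from the equal steps of each gene's values: of 721732 values under 60 reads, 98.2% came out whole (relative tolerance 0.0003), and for 10269 genes the step was exact. For Cd160 the step varied between cells and reads were set to the nearest whole number.

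Genes above 0 in at least 3 wells were counted, and wells with 1000 to 3500 of them were kept. Ratios are log2 of mean RPKM with 1 RPKM added. Shares, differences, number per cell and co-detection were described with intervals and no test, since each genotype is 1 pool of mice. Named were the 7 members, their ligands, partners, related receptors, factors and markers, and the 3 most correlated genes per member. The members and lists were chosen with earlier results of these data known. Gene families that share reads could not be checked in RPKM. The work was done in Python 3.11.15 (numpy 2.4.6, pandas 2.3.3, scipy 1.17.1 for intervals), and the scripts were tested on simulated data. Alternatives covered kept wells, plate rows, CD3 transcripts, depth, a detection limit of 10 RPKM, pseudocounts, scaling and the gene filter.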

Additional observations from a re-analysis of the deposited data

Results flagged for a closer look

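The wells left out for having more than 3500 detected genes carried the receptors more often than the kept cells. In these 30 wells (16 WT and 14 PD-1-/-), Cd160 was found in 63.3%, Lag3 in 46.7%, Ctla4 in 36.7%, Klrg1 in 30%, Cd274 in 26.7% and Pdcd1 in 23.3%. The shares of all 726 kept cells were 37.3%, 17.5%, 4.96%, 18.9%, 18.9% and 7.71%. Of the 30 wells, 19 (63.3%) had 2 or more of the 7 receptors, and Havcr2 was in 3. Whether these wells held more than 1 cell was not tested.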

How the results depend on the processing

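No paired analysis was possible because each genotype is 1 pooled sample, and the numbers shared by the labels of both groups name wells. For the same reason no replicate could be left out. The direction of the difference in share was the same in all 8 alternatives for Pdcd1, Lag3, Ctla4, Cd160, Klrg1 and Cd274, and in 6 of 8 for Havcr2, where it was 0 in the others. Its interval spanned 0 in 1 alternative for Lag3, 3 for Cd160, 5 for Klrg1 and 6 for Ctla4. The alternative that leaves out rows A and B and CD3 transcripts together was chosen after seeing the data. The log2 ratio of Pdcd1 was 3.90 without rows A and B, 3.03 without cells having a CD3 transcript, 3.34 without both, -0.88 for rows A to H alone and 3.76 for rows I to P. In 3 of these settings (3.90, 3.34 and 3.76) the WT mean was 0, and the added 1 RPKM sets the size. That of Havcr2 was 1.03, 1.08, 1.19, -1.15 and 1.45 in these settings, and 0.91 after thinning. That of Ctla4 was 0.57 without both, 0.77 without cells having a CD3 transcript, 0.87 with all wells kept and 0.65 with 10 RPKM added, each under 2-fold, and that of Klrg1 was 0.95 in rows I to P. Without cells having a CD3 transcript, WT kept 1 cell with Pdcd1, so the share of Lag3 in cells with Pdcd1 was 87.4 points higher and that of Ctla4 was -3.40 points. Without rows A and B, WT had no cell with Pdcd1 and these pairs gave no value. Without the filter on mean RPKM, 3.07% of 18475 genes were past a 2-fold rise and 4.78% past a fall. Of 726 cells, 22 WT and 14 PD-1-/- had under 100000 reads, and at 1 read a transcript may be missed.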
